A study of Mus musculus with 2 samples.

Results

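The p53 pathway was described here by 10 genes in spermatogonial progenitor cells (SPCs) of the mouse, the germ cells of the testis from which spermatogenesis is fed. They were the p53 gene Trp53, the inhibitors Mdm2 and Mdm4, and the p53 target genes Phlda3, Trp53inp1, Ccng1, Sesn1, Sesn2, Btg2 and Zmat3. The genes were chosen by name, and each was traced through all of its transcripts in both deposited files, out of 23226 named genes. All 10 reached 1 FPKM in 1 library or both and were among the 13795 genes compared. The poly(A) RNA of SPCs from testes aged 8 days was sequenced in 2 libraries, both of the strain C57BL/6: 1 wild-type and 1 Dnmt3l knockout. Dnmt3l encodes a partner of the de novo DNA methyltransferases that has no catalytic activity of its own, and the title of the series names its role in SPC quiescence. The labels do not say how the cells were isolated, whether animals were pooled or which part of Dnmt3l is deleted. In wild-type Dnmt3l was listed at 1.67 FPKM (bounds 0.791 to 2.68), and in knockout at 0.

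The p53 protein is a transcription factor that is kept low by MDM2, a ubiquitin ligase that marks it for destruction, and by the related protein MDM4, which masks its activation domain. Damage or stress releases p53, which then raises genes that slow the cell cycle, restrain growth signalling or lead to death, and also Mdm2 itself, which closes a feedback loop. In the male germ line p53 is known for its part in removing damaged germ cells.

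Values are FPKM, the fragments of a transcript scaled by its length and by library size, as Cufflinks estimated them, and each comes with a lower and an upper bound of the estimate. Both RefSeq transcripts and models assembled from the reads of 1 library were listed, and the value of a gene is the sum over its models. Differences are log2((knockout FPKM + 1)/(wild-type FPKM + 1)), so the fold of a low gene is understated. With 1 library per genotype there was no test, and no difference below has a replicate check. The bounds describe how well 1 library fixes an estimate and say nothing of the spread between animals. No read counts came with the FPKM, so the number of reads behind a value is unknown. In a bulk sample, fewer cells of a type and less RNA per cell cannot be told apart.

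4 of the genes turn on particular stretches of sequence, shown here 5′ to 3′ on the build mm10 (GRCm38). Trp53 has 2 RefSeq ends. NM_011640 splices to the usual last exon, whose coding bases at chr11:69591350-69591431 (plus strand) are in capitals. NM_001127233 uses an earlier acceptor and keeps 96 bases of intron 10, chr11:69591254-69591349, of which the 55 coding bases are in capitals and end in another stop codon. The lower-case bases are the end of exon 10 that both share, and the forms hold 390 and 381 codons. The exon sequences are from GENCODE M21 transcripts.
Trp53 NM_011640: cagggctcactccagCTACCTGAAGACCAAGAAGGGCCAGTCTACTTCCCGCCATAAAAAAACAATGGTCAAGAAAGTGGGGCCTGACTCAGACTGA
Trp53 NM_001127233: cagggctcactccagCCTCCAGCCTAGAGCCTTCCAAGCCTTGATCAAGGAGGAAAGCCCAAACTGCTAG
Exon 3 of Mdm2 (chr10:117709700-117709784, minus strand) carries the start codon, and a wild-type model lacks this exon. Its 81 coding bases are in capitals, followed by the first bases of exon 4.
Mdm2 exon 3: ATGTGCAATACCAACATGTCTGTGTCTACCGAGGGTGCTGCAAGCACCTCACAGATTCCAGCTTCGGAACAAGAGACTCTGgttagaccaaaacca
Trp53inp1 has a 38-base exon 4 (chr4:11167897-11167934, plus strand) that is used by NM_001199105 and skipped by NM_021897. Its 22 coding bases are in capitals and bring a stop codon, which leaves 163 codons against 239 without the exon.
Trp53inp1 exon 4: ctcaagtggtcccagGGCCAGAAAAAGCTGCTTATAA

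For Sesn1 the choice is between start sites. The RefSeq transcript NM_001162908 starts far upstream and has 551 codons, and NM_001013370 starts closer to the shared exons and has 492. The 250 bases before each start are shown with those of Ccng1, whose promoter held the pair with fewest mismatches. Capitals mark matches to the p53 half-site, the 10-base consensus bound by a p53 dimer: exact half-sites, and pairs of half-sites 0 to 13 bases apart with up to 2 mismatches in all. The promoter sequences are from the RefSeq table of GRCm38.p6, in which 8 of the 10 genes were matched. In GENCODE M21 the far Sesn1 exon begins at position 41809935, so the window before the RefSeq start lies inside that longer exon.
Sesn1 far start, chr10:41810324-41810573, plus strand: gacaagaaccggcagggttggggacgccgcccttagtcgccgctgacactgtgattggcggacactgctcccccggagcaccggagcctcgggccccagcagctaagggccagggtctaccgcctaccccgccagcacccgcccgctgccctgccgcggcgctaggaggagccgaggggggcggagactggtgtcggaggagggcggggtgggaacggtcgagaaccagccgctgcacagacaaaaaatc
Sesn1 near start, chr10:41887189-41887438, plus strand: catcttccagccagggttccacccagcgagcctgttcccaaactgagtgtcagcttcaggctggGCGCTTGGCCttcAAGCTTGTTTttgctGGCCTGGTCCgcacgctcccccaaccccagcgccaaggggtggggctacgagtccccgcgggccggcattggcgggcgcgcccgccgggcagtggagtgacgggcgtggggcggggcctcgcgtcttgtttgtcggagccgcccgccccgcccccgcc
Ccng1, chr11:40755287-40755536, minus strand: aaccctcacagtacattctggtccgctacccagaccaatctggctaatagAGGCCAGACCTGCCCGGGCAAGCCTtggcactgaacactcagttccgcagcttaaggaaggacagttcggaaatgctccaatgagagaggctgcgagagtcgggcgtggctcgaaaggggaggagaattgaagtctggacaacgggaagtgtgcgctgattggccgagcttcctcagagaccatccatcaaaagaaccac
A pair was found in 3.34% of 32851 promoter windows of the same length, and an exact half-site in 7.13%. Ccng1 had 2 overlapping pairs, and the one with 1 mismatch began 195 bases before the start. The near Sesn1 window held 2 pairs that share an exact half-site, each with 2 mismatches, the nearer one beginning 173 bases before the start. The far window held none. Trp53 and Mdm2 each had 1 exact half-site without a pair in this window. The windows of Phlda3, Sesn2, Btg2 and Mdm4 held no match to these letters. Matches are descriptions of sequence and were not measured as binding.

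Over all 13795 genes the knockout values were a little higher. The median log2 ratio was 0.21 (1.15-fold) where both values reached 1 FPKM, and the coverage that stood for 1 FPKM, a measure of relative depth if fragments were of like length, was 1.10 times as high in the knockout library. By the threshold of 2-fold, 7.68% of the genes were higher and 3.5% lower in the knockout library. With bounds that did not overlap, 35.4% were higher and 16.2% lower. The higher genes made up 68.7% of the 2-fold calls, 47.4% after centring on the median gene, 49.6% with upper-quartile scaling, 53.9% after subtracting the median of genes of like length and 50.8% with RefSeq transcripts only.

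Of the 10 genes, 7 were higher in the knockout library with bounds apart, 1 (Trp53inp1) was lower and 2 (Mdm4 and Sesn1) had bounds that overlapped. None reached 2-fold on the log2(FPKM + 1) scale upward, and Trp53inp1 did downward. The median log2 ratio of the 10 genes was 0.50, against 0.22 over all genes compared, and 7 lay above the median gene. The order turned with RefSeq transcripts only, at 0 against 0.11 over all genes compared. With the most abundant RefSeq transcript the median of the 10 genes was 0.057. Both settings count Mdm4 and Sesn2, whose RefSeq transcripts were listed at 0 in both libraries, as a ratio of 0. The all-gene median of 0.17 in the latter setting leaves such genes out, so 0.057 cannot be ranked against it. The FPKM of the 10 genes summed to 210.0 in wild-type and 285.3 in knockout. In the wild-type library Mdm4, Trp53 and Mdm2 were the most abundant, at 38.4, 36.3 and 35.2 FPKM with bounds that overlap, and Zmat3 was the lowest at 1.62 FPKM. In the knockout library Trp53 stood alone at the top, and its bounds did not reach down to those of Mdm2.

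**Figure D1:**
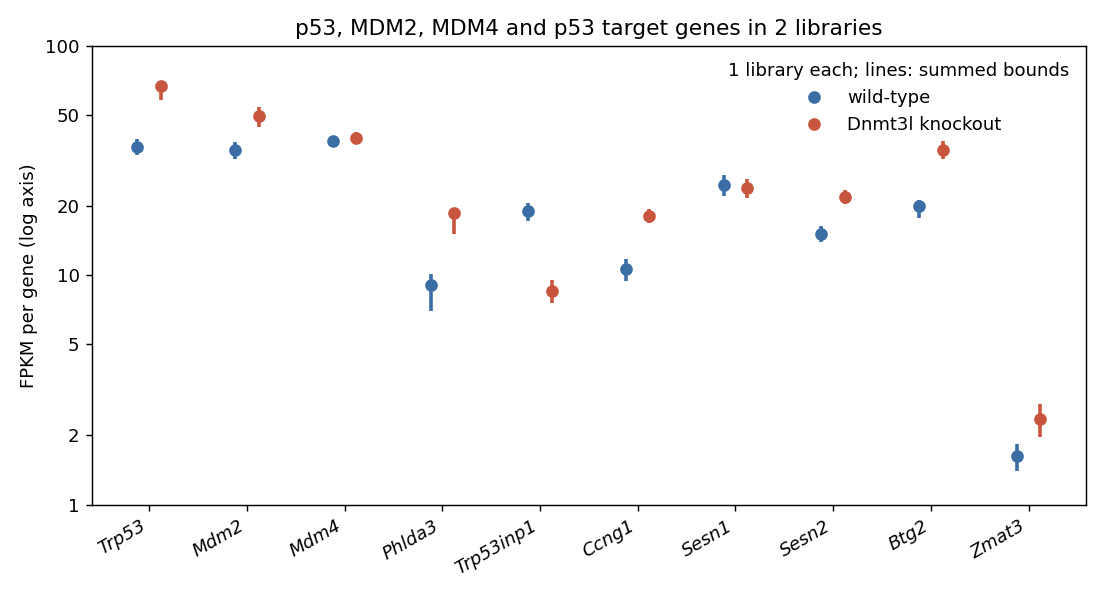
FPKM of each gene (vertical log axis) in the wild-type library (blue) and the Dnmt3l knockout library (red), with lines from the summed lower to the summed upper bound. Red lies above blue without overlap for 7 genes, below it for Trp53inp1 (8.57 against 19.0 FPKM), and the lines overlap for Mdm4 and Sesn1.

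Trp53 (chr11:69580359-69591873, plus strand) stood at 36.3 FPKM (33.6 to 39.2) in wild-type and at 67.2 FPKM (58.3 to 69.1) in knockout. The knockout value was 1.85-fold higher, a log2 ratio of 0.87, and 89.3% of the genes compared had a lower ratio. NM_011640, the form with the usual end, stood at 36.3 FPKM in wild-type and 54.7 FPKM in knockout. NM_001127233, the form with the shorter end, was listed at 0 in wild-type (upper bound 0.0731) and at 12.5 FPKM (10.1 to 14.2) in knockout, 18.6% of the Trp53 total there. An isoform listed at 0 in 1 library and at 5 FPKM or more in the other was seen in 1 of the 3 genes here with several measured RefSeq isoforms, and in 19.9% of the 1474 such genes overall. Wrap53 overlaps the start of Trp53 on the other strand, and the protocol marks no strand. Wrap53 stood at 24.6 and 32.2 FPKM, and a wild-type model of it at 3.07 FPKM covered 240 bases of the first Trp53 exons. Without strand, reads of Trp53 and Wrap53 in that overlap cannot be told apart.

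Mdm2 (chr10:117688905-117710716, minus strand), the p53 target that closes the feedback loop, was listed at 35.2 FPKM (32.2 to 38.3) in wild-type and 49.4 FPKM (44.5 to 54.4) in knockout. As a gene total it was 1.40-fold higher, with a log2 ratio of 0.48. That total hid opposite directions along the gene. The RefSeq transcript NM_010786, which holds the whole coding region of 489 codons, stood at 28.5 FPKM (26.5 to 30.5) in wild-type and at 18.5 FPKM (16.9 to 20.1) in knockout, a log2 ratio of -0.60. The knockout library held 2 further models that cover only the 3′ part. A model of 2 exons stood at 23.3 FPKM, 47.1% of the gene, and had the single intron of a GENCODE transcript of Mdm2 that is annotated as a retained intron. A model of 6 exons stood at 7.67 FPKM, 15.5% of the gene.

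The level of an exon is the summed FPKM of the models over its bases, so it restates these models along the gene and is not read coverage. Exons 1 and 2 of Mdm2 went from 35.2 in wild-type to 18.5 in knockout, exons 7 to 10 from 35.2 to 26.1, and exons 11 and 12 from 35.2 to 49.4. Over the outer 1000 bases of the transcript, the 5′ end had a log2 ratio of -0.66 and the 3′ end one of 0.48. A 3′ ratio above the 5′ ratio by 1 or more was found for Mdm2 alone among the 8 genes here with a transcript of 2000 bases or more, and for 12.3% of the 9339 such genes. In the wild-type library, 19.1% of Mdm2 (6.72 FPKM) was in a model of 11 exons without exon 3, the exon with the start codon printed above. All introns of that model are in GENCODE, and no such model was listed in the knockout library.

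Mdm4 (chr1:132989845-133025348, minus strand) had near-equal totals, 38.4 FPKM (36.3 to 40.5) in wild-type and 39.7 FPKM (37.2 to 42.3) in knockout, with a log2 ratio of 0.05. Its RefSeq transcript NM_008575 was listed at 0 in both libraries, and the gene was made up of assembled models. The form that skips exon 2, with the introns of a coding GENCODE transcript, stood at 23.1 FPKM in wild-type and 14.96 FPKM in knockout, a log2 ratio of -0.60. Exon 2 has 78 bases and none of them is coding, so this form keeps all 489 codons. The rest of the wild-type total was a model of 5 exons from the 3′ part, at 15.2 FPKM. The rest of the knockout total was a model of 12 exons at 24.8 FPKM, which includes exon 2 and has 3 introns that GENCODE does not list. One of them (chr1:132989040-132994502) leaps from exon 11 over the whole of RefSeq exon 12, where the coding region ends. In the other assembled models of Mdm4 the last exon runs on past the RefSeq end, and this intron ends inside that added stretch.

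The level of Mdm4 exon 12 was thus 38.4 in wild-type and 14.96 in knockout, a log2 ratio of -1.30, while exon 1 went from 23.1 to 39.7. Averaged over all RefSeq exon bases, the log2 ratio was -0.64, so the direction of Mdm4 depends on which bases are read. Mdm2 and Mdm4 were alike in this respect: the models with the full coding region were lower in the knockout library and the remainder consisted of partial or unlisted forms.

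**Figure D2:**
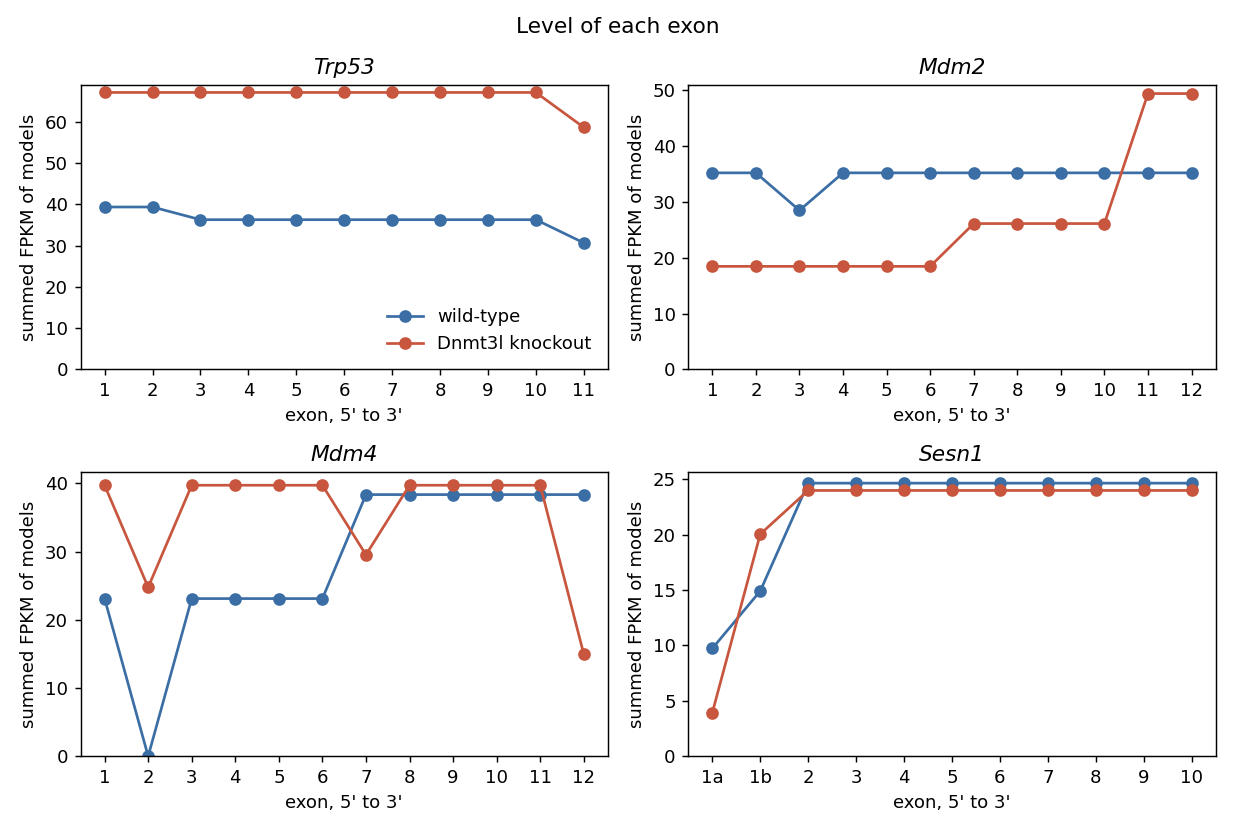
Summed FPKM of all models over each RefSeq exon (vertical axis), by exon from 5′ to 3′ (horizontal axis), for Trp53, Mdm2, Mdm4 and Sesn1 in the wild-type (blue) and knockout (red) library, where 1a and 1b are the far and near first exons of Sesn1. The levels restate the models: Trp53, whose RefSeq forms share exons 1 to 10, is higher in knockout throughout, Mdm2 is lower over exons 1 to 10 and higher over exons 11 and 12, and Mdm4 drops to 14.96 at exon 12.

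Summing only models that hold a whole annotated coding region gives another view of the same genes. By that sum Trp53 was again at 36.3 and 67.2 FPKM, Mdm2 went from 35.2 to 18.5 FPKM and Mdm4 from 23.1 to 14.96 FPKM. The wild-type sum of Mdm2 includes the model without exon 3, which keeps a shorter coding region listed in GENCODE. The log2 ratios were 0.87 for Trp53, -0.90 for Mdm2 and -0.60 for Mdm4, against a median of 0.13 over 12514 genes. Of these genes, 10.4% had a lower ratio than Mdm2 and 17.1% a lower ratio than Mdm4. Such models made up 37.4% of Mdm2 and 37.7% of Mdm4 in the knockout library. A share under 50% was also found for 20.2% of 8968 genes in knockout and 11.7% in wild-type, over genes of at least 5 FPKM in each. This sum was chosen after the models had been seen.

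Phlda3 and Trp53inp1 sit on the side of p53 that favours death. Phlda3 (chr1:135766085-135769134, plus strand) encodes a small protein that competes with AKT for membrane lipids and so dampens survival signals. It was listed at 9.06 FPKM (6.97 to 10.1) in wild-type and 18.7 FPKM (15.1 to 19.3) in knockout, in a single RefSeq transcript. It had the highest ratio of the 10 genes, 2.06-fold in FPKM and 0.97 on the log2(FPKM + 1) scale, just under the 2-fold threshold.

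Trp53inp1 (chr4:11156441-11174377, plus strand) encodes a stress protein that acts with p53 in cell death and also takes part in autophagy. It went the other way, from 19.0 FPKM (17.3 to 20.7) in wild-type to 8.57 FPKM (7.57 to 9.56) in knockout. The wild-type value was 2.22-fold higher, a log2 ratio of -1.06, and 3.10% of the genes compared had a lower ratio. Both isoforms were lower. NM_001199105, with the extra exon and the shorter frame, went from 14.1 to 7.25 FPKM, and NM_021897, with the longer frame, from 4.93 to 1.31 FPKM. The form with the longer frame thus made up 25.9% of the gene in wild-type and 15.3% in knockout. Trp53inp1 was the 1 gene of the 10 whose ratio was negative under each of the 12 alternatives tried. Some of these, such as the pseudocounts, cannot change a sign.

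Ccng1 and Btg2 act on cell division. Ccng1 (chr11:40748552-40755286, minus strand) encodes cyclin G1, which brings a phosphatase to MDM2. It was listed at 10.7 FPKM (9.44 to 11.7) in wild-type and 18.1 FPKM (16.9 to 19.4) in knockout, in 1 RefSeq transcript, a log2 ratio of 0.71. Btg2 (chr1:134074865-134079155, minus strand) encodes an antiproliferative protein that binds the mRNA deadenylase complex. Its total was 19.98 FPKM (17.8 to 21.3) in wild-type and 35.3 FPKM (32.3 to 38.4) in knockout, a log2 ratio of 0.79.

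The knockout total of Btg2 was divided. The RefSeq transcript NM_007570 went from 19.98 FPKM to 7.39 FPKM, a log2 ratio of -1.32. A knockout model of 3 exons at 27.9 FPKM, 79.0% of the gene, joins the coding exons to an exon further upstream by an intron that GENCODE does not list, and it keeps the whole coding region. The model stops short of the RefSeq 3′ end, at position 134075396 against 134074865. Averaged over exon bases the log2 ratio of Btg2 was 0.55. Over the outer 1000 bases of the transcript, the 5′ end had a log2 ratio of 0.68 and the 3′ end one of 0.03. The intron shared by both forms was held by models of 19.98 FPKM in wild-type and 35.3 FPKM in knockout.

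The sestrins Sesn1 and Sesn2 restrain mTORC1 growth signalling when amino acids are short and limit oxidative stress. Sesn1 (chr10:41810574-41908436, plus strand) had totals of 24.7 FPKM (22.1 to 27.3) in wild-type and 23.997 FPKM (21.7 to 26.4) in knockout, a log2 ratio of -0.04. Beneath these totals its start sites differed in opposite directions. The far form NM_001162908 went from 9.74 FPKM (8.62 to 10.9) to 3.94 FPKM (3.23 to 4.67), a log2 ratio of -1.12. The near form NM_001013370, whose window holds the p53 half-site pairs printed above, went from 14.9 FPKM (13.4 to 16.4) to 20.1 FPKM (18.4 to 21.7), a log2 ratio of 0.40. The near form was therefore 60.5% of Sesn1 in wild-type and 83.6% in knockout. Any bearing of the half-site pairs on this difference was not tested. Isoforms that differ in opposite directions by 0.25 or more on the log2 scale were found in 1 of the 3 genes here with several isoforms, and in 36.7% of 1474 genes.

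Sesn2 (chr4:132492807-132510456, minus strand) was listed at 15.1 FPKM (13.9 to 16.3) in wild-type and 22.0 FPKM (20.5 to 23.5) in knockout, a log2 ratio of 0.52. In each library all of it was in 1 assembled model with the introns of the RefSeq transcript and longer ends, and NM_144907 itself was listed at 0. Zmat3 (chr3:32334794-32365665, minus strand), which encodes a zinc finger protein that binds RNA, was low in both libraries, at 1.62 FPKM (1.40 to 1.84) in wild-type and 2.36 FPKM (1.96 to 2.76) in knockout. Its RefSeq transcript went from 1.62 to 1.84 FPKM, with bounds that overlap, and a knockout model of 1 exon from the 3′ end added 0.524 FPKM. The gene 4930429B21Rik, on the other strand of Zmat3, was listed at 0 in both libraries.

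**Figure D3:**
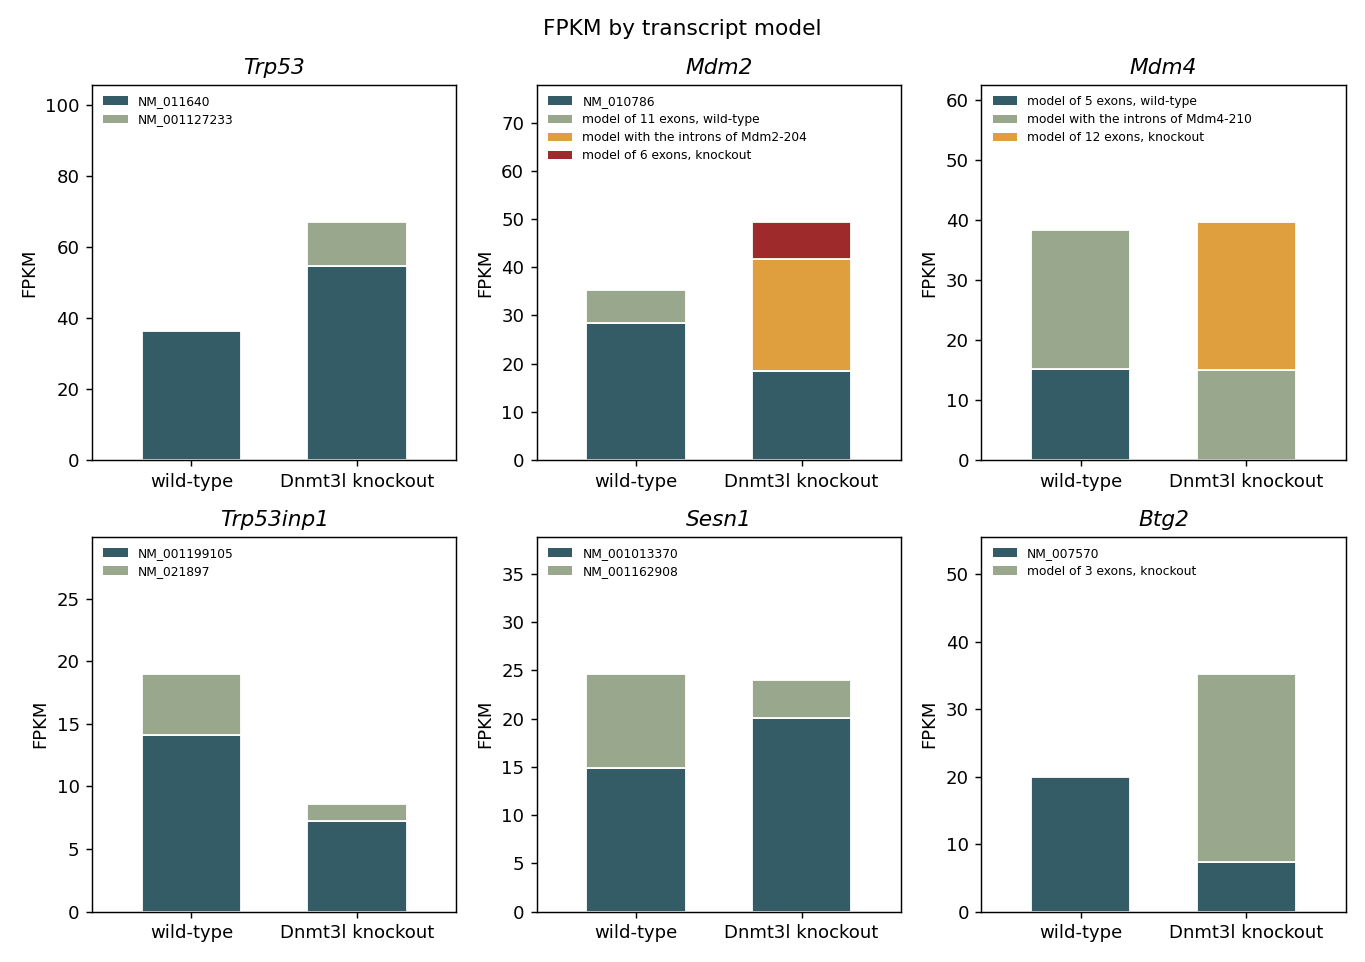
FPKM of each transcript model (stacked bars from 0) in the wild-type and knockout library for 6 genes, with models named by RefSeq identifier, by the GENCODE transcript with the same introns, or by exon number. Mdm2 NM_010786 is smaller in knockout (18.5 against 28.5 FPKM) under a larger total, Sesn1 turns to NM_001013370, and most of Btg2 in knockout is a model of 3 exons.

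The wider p53 pathway was described by 5 lists, of which 72 of 81 genes were compared. Among targets that halt the cell cycle, 3 of 13 were at least 2-fold higher, beside 7.68% of all genes, and 0 lower. With bounds apart 6 of 13 were higher, near the 35.4% of all genes. Plk3, a stress kinase, was listed at 4.24 FPKM in wild-type and 17.9 FPKM in knockout, a log2 ratio of 1.85. Gadd45a, a growth arrest protein, was listed at 9.19 and 21.8 FPKM (1.16), but its RefSeq transcripts alone gave -0.33. Cdkn1a, the CDK inhibitor p21 and the best known p53 target, stood at 3.95 FPKM in wild-type and 8.58 FPKM in knockout (0.95). Igfbp3, a binding protein of insulin-like growth factors, stood at 9.51 and 15.5 FPKM (0.65). The third gene past 2-fold, Sfn, was low, at 1.21 and 4.26 FPKM, and is named after its values were seen. The median of the list was 0.30.

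Of the targets that lead to death, 10 of 14 were compared, and the median was 0.22, the same as that of all genes. None reached 2-fold, beside 7.68% of all genes higher and 3.5% lower. With bounds apart 2 of 10 were higher and 1 lower, beside 35.4% and 16.2% of all genes. Bax, which permeabilises mitochondria, was listed at 84.0 FPKM in wild-type and 139.6 FPKM in knockout (0.73), although the knockout estimate lay above its own upper bound of 130.2. Triap1, an inhibitor of apoptosis, stood at 7.86 and 12.7 FPKM (0.63). Trp53i11 stood at 14.5 and 9.46 FPKM (-0.57), and Apaf1, the core of the apoptosome, at 7.48 and 5.06 FPKM (-0.48). The bounds were apart for Trp53i11 and overlapped for Apaf1. Bbc3, which encodes PUMA, was listed at 0 in both libraries.

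Of 14 targets in DNA repair and metabolism, 1 was at least 2-fold higher, beside 7.68% of all genes, and 1 lower, beside 3.5%. With bounds apart 5 of 14 were higher and 2 lower, near the 35.4% and 16.2% of all genes. The median of the list was 0.23. Tap1, a peptide transporter, was listed at 2.77 FPKM in wild-type and 7.83 FPKM in knockout (1.23), while its RefSeq transcripts alone gave -0.26. Fdxr, a mitochondrial reductase, stood at 16.9 and 33.2 FPKM (0.93), with 0.17 from RefSeq transcripts alone. Abhd4, a lipase, stood at 39.3 and 73.5 FPKM (0.89), and the ribosomal protein gene Rps27l at 107.4 and 163.1 FPKM (0.60). The lower gene was Ak1, at 1.38 FPKM in wild-type and listed at 0 in knockout, named after its values were seen.

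Of the 26 regulators of p53, 15 had a ratio above 0 and 11 below, and their FPKM summed to 2058 in wild-type and 2158 in knockout. Most of both sums came from Rpl5 (683.1 and 532.2 FPKM) and Rpl11 (660.8 and 991.6 FPKM), named after their values were seen. The sums thus say little of the other regulators. With bounds apart, 5 were higher, beside 35.4% of all genes, and 10 were lower, beside 16.2%. Their median log2 ratio was 0.05, and 18 lay below the median gene. The damage kinase gene Atr was listed at 28.2 FPKM in wild-type and 12.8 FPKM in knockout (-1.08), with -0.70 at the exon level and -2.69 from RefSeq transcripts alone. Ep300, an acetyltransferase of p53, stood at 24.4 and 12.1 FPKM (-0.96), with 0.02 from RefSeq transcripts alone. Sirt1, a deacetylase of p53, stood at 19.2 and 10.4 FPKM (-0.82), and Setd7, a methyltransferase, at 8.67 and 4.51 FPKM (-0.81). RefSeq transcripts alone gave -0.32 for Sirt1 and -0.30 for Setd7. The median of the list was -0.19 after subtracting that of genes of like transcript length. It was 0.12 with RefSeq transcripts only, beside 0.11 over all genes compared, and 0.12 with whole coding regions only. Over all genes of at least 1 FPKM in whole coding regions the median was 0.13.

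Of the paralogues of the 10 genes, 9 of 13 were compared, 0 reached 2-fold, beside 7.68% of all genes higher and 3.5% lower, and the median was 0.25. Phlda1 stood at 6.85 FPKM in wild-type and 11.1 FPKM in knockout (0.62), the largest ratio among them, and Phlda2 at 6.89 and 8.52 FPKM. Sesn3 was the single one with a negative ratio, at 13.8 and 11.3 FPKM (-0.27), with bounds that overlap and 0.18 from RefSeq transcripts alone. Trp53inp2, the paralogue of Trp53inp1, stood at 19.5 and 23.3 FPKM (0.25) with bounds that overlap, and its RefSeq transcripts alone gave -1.60. Btg1 stood at 11.2 and 13.3 FPKM, Ccng2 at 12.9 and 14.0, Tob2 at 10.6 and 12.2, Zmat1 at 8.06 and 9.82 and Zmat4 at 1.83 and 2.62 FPKM. The p53 relatives Trp63 and Trp73 and the genes Btg3 and Btg4 were under 1 FPKM in both libraries.

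**Figure D4:**
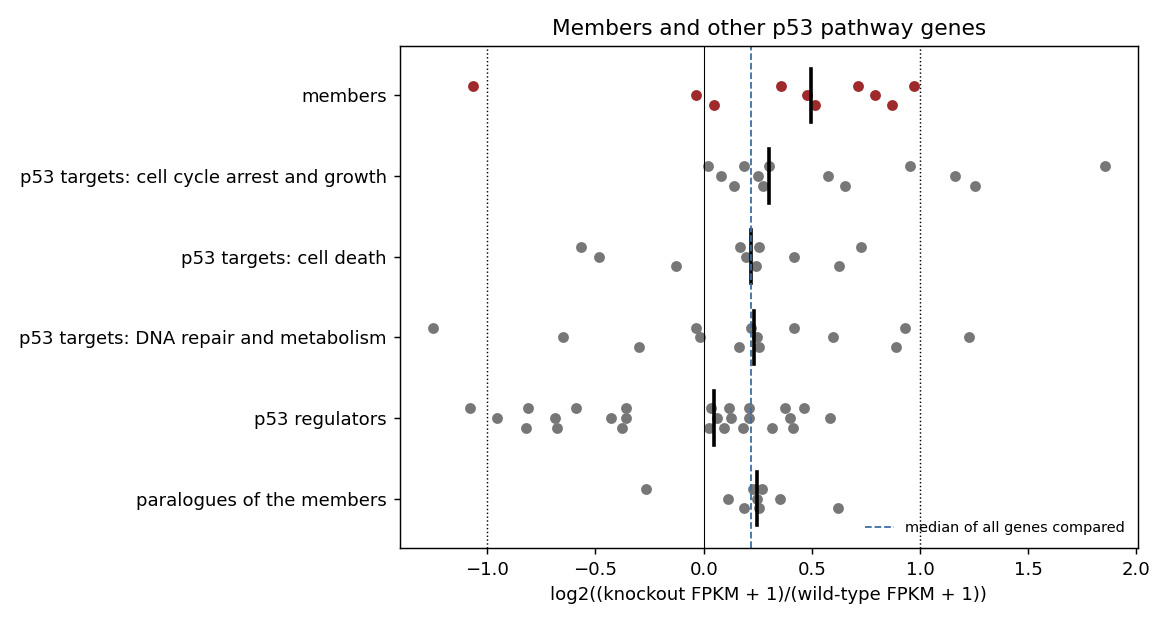
Log2((knockout FPKM + 1)/(wild-type FPKM + 1)) of each compared gene (horizontal axis) for the 10 genes (red) and 5 pathway lists (grey), with black bars at list medians, a dashed line at the median of all genes and dotted lines at 2-fold. The 10 genes have a median of 0.50, and the regulators, with a median of 0.05, reach furthest to the left after the repair list's Ak1.

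Markers of other testis cells also differed between the libraries. Germ cell markers summed to 1479 FPKM in wild-type and 1376 FPKM in knockout, with 1 of 12 at least 2-fold lower, beside 3.5% of all genes. The list was split, with 6 ratios above 0 and 6 below, and with bounds apart 5 higher and 5 lower. Sertoli cell markers summed to 599.5 and 1243 FPKM, with 4 of 12 at least 2-fold higher, beside 7.68% of all genes, and 0 lower. Macrophage and leukocyte markers summed to 559.2 and 1093 FPKM, with 6 of 12 higher. In that list 1 was lower, Cd68, listed at 24.6 FPKM and 0. Leydig cell markers summed to 60.5 and 135.7 FPKM with Star at 0 in both libraries, and 2 of the 5 compared were at least 2-fold higher. Endothelial markers summed to 51.5 and 105.3 FPKM, with 3 of 6 at least 2-fold higher. Peritubular markers summed to 561.2 and 769.7 FPKM, with 0 of 7 at 2-fold. The part of these cells in the values of the 10 genes was not tested.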

How the data were processed

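RNA was selected for poly(A), fragmented, copied with random primers and sequenced as paired 100-nt reads, per the labels' protocols. The tools CASAVA 1.9, TopHat2 2.0.8 and Cufflinks 2.1.1, with mm10 as the build, are given per the submitters' processing notes, and their settings are not given in the sources used here. The deposited files list RefSeq transcripts and assembled models with FPKM, its bounds and coverage per transcript. A score column that the authors also deposited was left aside. Each FPKM was taken unscaled, as deposited.

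Of 30079 RefSeq identifiers, 29451 were named by accession and 13 stayed unnamed. Assembled models were counted to the same-strand gene of greatest exon overlap if they had at least 300 nt, and shorter models and those with no strand were left out. Genes of 1 FPKM or more in either library were compared with a pseudocount of 1, and called at 2-fold. From each pathway list the 4 genes with the largest ratio among those of 5 FPKM or more were named, with all paralogues and genes on the opposite strand. The 10 genes and the lists were chosen with earlier results of these data known. Python 3.11.15 and numpy 2.4.6 were used, and the computation was tested on simulated data: all 200 genes changed 4-fold among 13795 were recovered. The changed genes had a mean of 5 FPKM or more, and the noise was small beside the threshold. Errors of isoforms or assembled models were not simulated, so the result checks the arithmetic of the calls alone. Alternatives were pseudocounts, filters, scalings, subsets of models, the exon level and coverage.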

Additional observations from a re-analysis of the deposited data

How the results depend on the processing

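The libraries have no replicates, so none could be left out. No paired analysis was possible because there is 1 library per genotype. The 1 gene of the 10 at 2-fold (Trp53inp1, lower) became 2 with a pseudocount of 0.1 (1 higher, 1 lower), 0 with one of 5, 2 with RefSeq transcripts only (both lower), 2 with coverage in place of FPKM (Trp53 and Phlda3, both higher, with Trp53inp1 at -0.99), 0 after subtracting the median of 20 length bins, and 5 at 1.5-fold (4 higher, 1 lower). Their median log2 ratio of 0.50 became 0 with RefSeq transcripts only and 0.057 with the most abundant RefSeq transcript. In these 2 settings 8 of the 10 genes were measured, and Mdm4 and Sesn2 entered as a ratio of 0. In the other alternatives the median of the 10 genes lay between 0.28 and 0.65. Over all genes the 1543 calls became 576 with a pseudocount of 5, 2828 with RefSeq transcripts only, 2936 with the most abundant RefSeq transcript, 2713 with coverage, 771 with a filter of 10 FPKM and 4376 at 1.5-fold. The 6 calls in the pathway lists became 1 with a pseudocount of 5, 14 with RefSeq transcripts only, 13 with the most abundant RefSeq transcript, 3 after subtracting length bins, 13 with whole coding regions only and 3 with a filter of 10 FPKM. The cause of these shifts was not tested. Trp53, Phlda3, Trp53inp1, Ccng1 and Zmat3 kept their sign in 12 of 12 alternatives, Mdm2 in 9, and Sesn1 and Btg2 in 10. Many of these alternatives could not change a sign, so the counts do not measure how firm a direction is. A pseudocount never changes it. Phlda3 and Ccng1, each in a single RefSeq transcript, had the same value in every subset of models and at the exon level. Sesn2 kept its sign in 10 and had a ratio of 0 in 2. Mdm4 kept its sign in 5, had the other sign in 5 and a ratio of 0 in 2. The length bins, the strandless models and the whole coding regions were alternatives chosen after seeing the data. Without read counts, what depth limits cannot be given.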

Other observations

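Among the regulators, the ribosomal protein genes Rpl5 and Rpl11 encode proteins that are known to bind MDM2 when free. Rpl11 was listed at 660.8 FPKM (638.5 to 691.1) in wild-type and 991.6 FPKM (960.0 to 1031.7) in knockout. Rpl5 was listed at 683.1 and 532.2 FPKM, with both estimates above their own upper bounds of 628.0 and 504.3. Its log2 ratio was -0.36 from these totals, 0.23 at the exon level and 1.82 with RefSeq transcripts only, while Rpl11 had 0.58 by each measure. Cdkn2a, the source of the MDM2 inhibitor ARF, was listed at 52.2 and 65.2 FPKM, again above its upper bounds of 49.4 and 60.8. These genes were picked after their values were seen.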
